A study of Mus musculus with 2 samples.

Results

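The genes described are 9 members of the myosin II system, found by symbol among the 23961 gene symbols of the deposited tables. They are the regulatory light chains Myl10, Myl9, Myl12a and Myl12b, the essential light chains Myl4 and Myl6, the heavy chains Myh9 and Myh10, and the kinase gene Mylk. The members were chosen by gene family and by measured values of these libraries: Myl10 was taken for its difference between the libraries and is set against the other 8, so its values are a description. RNA-seq was done on haematopoietic stem cells sorted from bone marrow of untreated C57BL/6 mice, with 1 library from wild-type mice labelled Per2wt and 1 from Per2-deficient mice labelled Per2def. The Per2 protein represses the circadian clock. The labels do not give the Per2 allele, the sort markers, the time of collection, the age or sex of the animals, or how many animals gave each library. The values are FPKM, which divide the fragments of a gene by its transcript length and by the library's total, so levels of different genes can be set side by side. Since each genotype has 1 library, replicate error cannot be given and nothing was tested. Each difference is between these libraries, and in bulk RNA fewer cells of a type and less RNA per cell cannot be told apart.

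Myosin II is the motor that pulls on actin filaments in dividing, migrating and contracting cells. A pair of heavy chains carries the motor heads, and each neck binds 1 essential light chain, which stiffens it, and 1 regulatory light chain. Kinases such as the Mylk product switch the motor on by phosphorylating a neighbouring threonine and serine near the start of the regulatory chain, and a phosphatase reverses this. In blood cells the motor serves cell division, migration and the shaping of platelets, with the Myh9 product as the usual heavy chain. Myl10 is a regulatory light chain gene first described in precursor lymphocytes, and RefSeq still lists it under the synonym PLRLC.

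The annotated coding sequences show how far Myl10 stands from its relatives and how alike Myl12a and Myl12b are. The stretches below run over 90 coding bases that begin at the same methionine codon and take in the first calcium-binding fold of each regulatory chain (GENCODE M21, GRCm38, 5′ to 3′ on the coding strand). They lie at chr5:136693383-136694288 for Myl10 (plus strand, exons 1 to 2, with an intron between), chr17:70996719-70996808 for Myl12a (minus strand, exon 2), chr17:70977070-70977159 for Myl12b (minus strand, exon 2) and chr2:156778617-156778706 for Myl9 (plus strand, exon 2). Capitals mark bases that differ from Myl12b.
Myl12b: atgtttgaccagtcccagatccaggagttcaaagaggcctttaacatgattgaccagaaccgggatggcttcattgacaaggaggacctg
Myl12a: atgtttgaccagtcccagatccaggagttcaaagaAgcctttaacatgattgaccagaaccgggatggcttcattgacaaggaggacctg
Myl9: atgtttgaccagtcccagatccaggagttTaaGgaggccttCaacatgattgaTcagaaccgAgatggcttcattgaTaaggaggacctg
Myl10: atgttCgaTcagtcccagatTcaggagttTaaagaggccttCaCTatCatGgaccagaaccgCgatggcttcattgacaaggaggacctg

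Myl12a differs from Myl12b at 1 of these bases, Myl9 at 6 and Myl10 at 10. Over the whole coding sequence Myl12a and Myl12b are 96.5% identical (498 of 516 aligned bases), with an identical run of 102 bases. Myl10 is 66.7% identical to Myl12b over 438 aligned bases, and their longest identical run is 27 bases. Of the 1010 different 50-base words in the coding transcripts of Myl10, 0 occur in transcripts of any other gene. Of those of Myl12a 18.8% occur in Myl12b transcripts, and of those of Myl12b 20.7% occur in Myl12a transcripts, so the split of fragments between that pair is uncertain. These shares already take in a second Myl12b entry of the annotation, which runs into Myl12a on the same strand. Its part in them was not set apart from the likeness of the 2 genes.

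The codons of the phosphorylated threonine and serine lie just before this stretch. They are shown in capitals for Myl12b (exon 2, minus strand, chr17:70977142-70977201), since this is the site on which the kinase acts.
Myl12b: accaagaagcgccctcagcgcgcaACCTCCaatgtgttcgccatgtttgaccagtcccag
The same codons were found in Myl12a and, with another threonine codon, in Myl9. The principal coding sequence of Myl10 (441 bases, against 516 for each of the other regulatory chains) begins at the shared methionine codon. It holds no bases before that codon, where the site lies in the other chains, so a search of it could find no counterpart. Myl10 has 4 coding transcripts and the others were not searched, so whether it has such a site was not settled. The files give gene totals only, so which Myl10 transcript was present was not analysed here.

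Facts of the whole data set frame the member values. Of 11121 genes that reached 1 FPKM in either library, the Per2def library had 0.998% at least 2-fold lower and 1.25% at least 2-fold higher on the log2(FPKM + 1) scale, which understates differences of low genes. Of the 10148 among them not named as small or predicted RNAs, 17 were at least 2-fold lower and 27 at least 2-fold higher. The median difference of the 11121 genes, as log2(FPKM + 1) in Per2def minus Per2wt, was 0.05, with 62.0% of them higher. The files give no read totals, so the depth behind a value is unknown. Among 3232 low genes the commonest FPKM ratio was that of a Per2def library 1.24 times as deep. Per2 itself had 1.96 FPKM where the label is Per2wt and 6.16 FPKM where it is Per2def, against the direction that loss of the RNA would give, so each direction is between libraries as labelled. Of the genes listed as stem cell markers, Kit (42.7 and 43.6 FPKM) and Cd34 (90.5 and 83.9 FPKM) were present in both libraries. Slamf1, Fgd5 and Hoxb5 of the same list were under 1 FPKM in both. Whether the sorted cells were all stem cells was not tested.

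Myl10 was the member that differed by at least 2-fold. Its level was 88.5 FPKM in the Per2wt-labelled library and 33.1 FPKM in the Per2def-labelled library. It was thus 2.67-fold lower in the latter, with a log2(FPKM + 1) difference of −1.39. The gene (ENSMUSG00000005474.9, chr5:136693146-136701094, plus strand, GRCm38) ranked 373rd of 23961 by FPKM in Per2wt and 1024th in Per2def. In Per2wt its level was close to those of Cd34 and Myl12b. In Per2def it lay near Myl12a, which was nearly the same in both libraries. Of the 9 members, 1 was at least 2-fold lower and 0 were at least 2-fold higher. That 1 of 9 is Myl10, the gene taken for this difference, so nothing is read from the count beside the 0.998% of all genes.

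**Figure D1:**
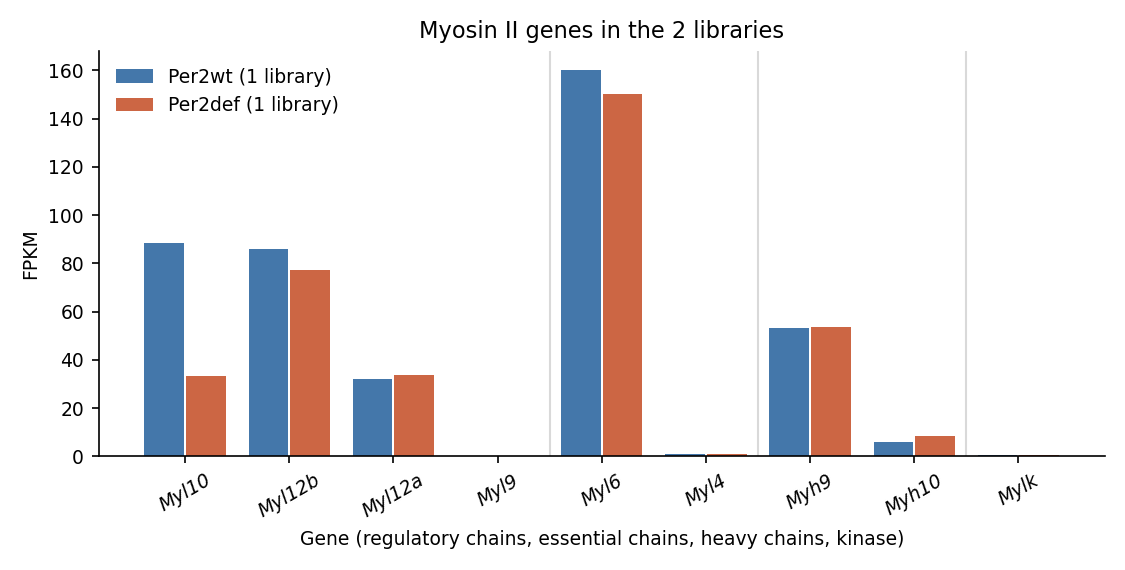
FPKM (vertical axis, linear from 0) of the 9 myosin II genes, with a bar for each of the 2 libraries. Myl10 is at 88.5 in Per2wt and 33.1 in Per2def, while the bars of Myl12b, Myl12a, Myl6 and Myh9 are close in height. Myl9, Myl4 and Mylk lie near 0.

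Few genes at this level differed by as much. Since Myl10 was taken for its difference, its place among them is a description only. Among 738 other named genes (rows not named as small or predicted RNAs) with a mean FPKM within 2-fold of that of Myl10, 3 differed by as much in either direction. Of these, 1 was lower in the library labelled Per2def. The middle 95% of these genes lay between −0.34 and 0.31. Of the 966 named genes that reached 30 FPKM in either library, 5 were at least 2-fold lower, and Myl10 ranked 3rd among them. The others, listed after their values were seen, were the alpha globin gene Hba-a2 (67.8 and 9.50 FPKM), the viral restriction factor gene Apobec3 (30.7 and 9.06 FPKM), BC002163 (32.3 and 12.6 FPKM) and Erdr1 (467.6 and 229.3 FPKM). Hba-a2 shares reads with Hba-a1, which makes its value uncertain.

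**Figure D2:**
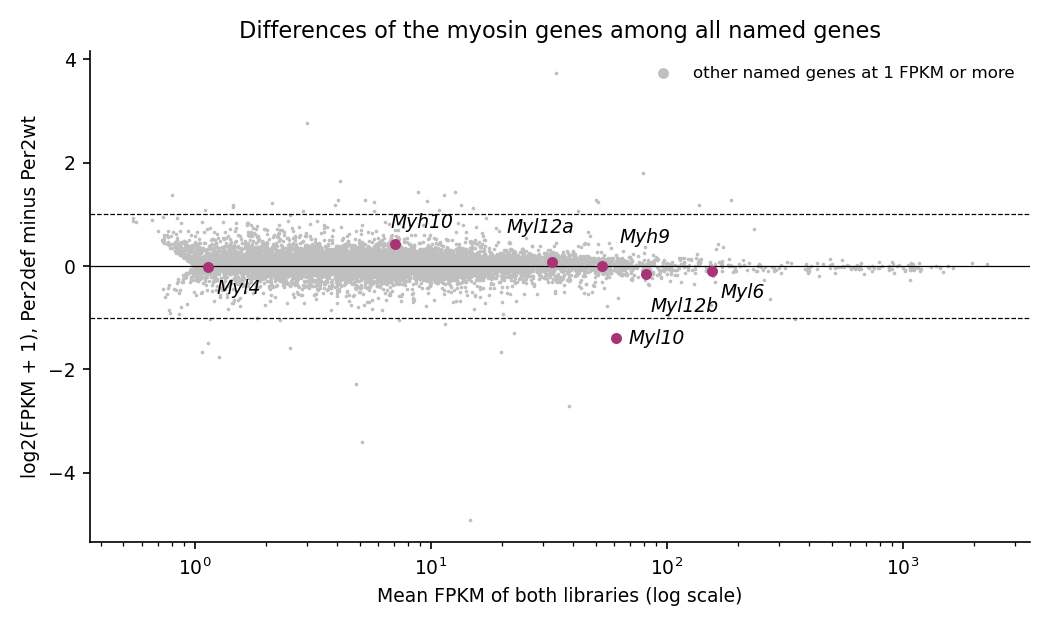
Difference in log2(FPKM + 1), Per2def minus Per2wt (vertical axis), against the mean FPKM of both libraries (horizontal axis, log scale) for named genes at 1 FPKM or more, 1 grey point per gene. The 7 members at that level are purple. Dashed lines mark a 2-fold difference, and Myl10 at −1.39 is the member beyond them.

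The genes whose difference came nearest to that of Myl10, among genes with a mean FPKM within 2-fold of it and by the gap between their log2 differences over these 2 libraries, were all less far apart. Gpr56, an adhesion receptor gene of stem cells, was nearest, at 133.8 and 69.3 FPKM (−0.94). The beta globin genes Hbb-bt, at 71.0 and 41.2 FPKM (−0.77), and Hbb-b1, at 75.7 and 48.7 FPKM (−0.63), came next, both near copies of other globin genes and so uncertain. They were followed by Txnip, which encodes a thioredoxin-binding protein, at 55.6 and 37.7 FPKM (−0.55). The fifth was the AP-1 subunit gene Jun, at 52.6 and 36.4 FPKM (−0.52). No other named gene at that level thus lay within 0.45 log2 units of its difference.

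The other regulatory light chain genes were alike in the libraries. Myl12b (ENSMUSG00000034868.9, chr17:70973133-70990890) had 86.1 FPKM (Per2wt) and 77.3 FPKM (Per2def), a log2 difference of −0.15. Its neighbour Myl12a (ENSMUSG00000024048.15, chr17:70993656-71002878) stood at 32.0 and 33.7 FPKM, a difference of 0.07. The sum of this near-identical pair was 118.1 and 111.0 FPKM (−0.09). It depends less than either value on how reads are split within the pair, though transcript lengths still enter it. Both encode the regulatory chain of non-muscle cells. Myl9 (ENSMUSG00000067818.6, chr2:156775420-156781658), the regulatory chain typical of smooth muscle and platelets, was listed at 0 in Per2wt and at 0.0399 FPKM in Per2def, so no fold is given.

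The make-up of the regulatory light chain pool therefore differed between the libraries. Since FPKM are set per length, members can be summed. The 4 genes together summed to 206.6 FPKM (Per2wt) and 144.1 FPKM (Per2def), a log2 difference of −0.52. Myl10 accounted for −55.3 FPKM of the −62.4 FPKM between them. Its share of the pool was 42.8% in Per2wt and 23.0% in Per2def. The share of Myl12b was 41.7% and 53.6%, and that of Myl12a 15.5% and 23.4%. Myl10 was the most abundant regulatory chain RNA in Per2wt and the least abundant of these 3 in Per2def, where it lay just under Myl12a. With no replicates, the order of Myl10 and Myl12b in Per2wt and of Myl12a and Myl10 in Per2def cannot be set against a spread.

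**Figure D3:**
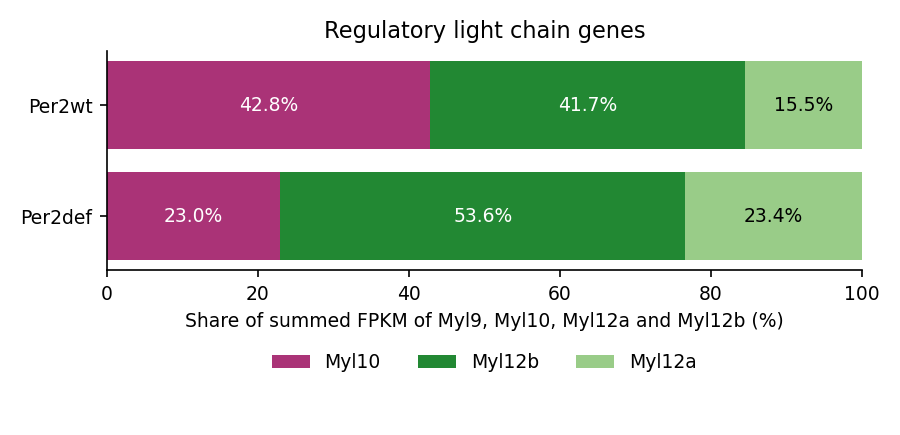
Share of each regulatory light chain gene in the summed FPKM of Myl9, Myl10, Myl12a and Myl12b (horizontal axis, percent), with 1 bar per library. Myl10 takes 42.8% in Per2wt and 23.0% in Per2def, and Myl9 is too low to be seen.

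Essential light chain RNA came almost wholly from Myl6, the essential chain of non-muscle and smooth muscle myosin. Myl6 (ENSMUSG00000090841.2, chr10:128490860-128494145) was the most abundant member, at 160.1 FPKM (Per2wt) against 150.4 FPKM (Per2def), a difference of −0.09. Of its 50-base words 14.3% also occur in transcripts of other genes, mostly in Gm5526, so part of its value may be shared. Myl4 (ENSMUSG00000061086.12, chr11:104550663-104595753), the chain of embryonic muscle and the heart atrium, was at 1.15 and 1.14 FPKM (−0.01). Myl6 made up 99.3% of the summed FPKM of the pair in each library.

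The heavy chain genes differed in different measure. Myh9 (ENSMUSG00000022443.17, chr15:77760587-77842175), which encodes non-muscle heavy chain IIA, had 53.3 and 53.5 FPKM, a log2 difference of 0.01. Its sign turns when the libraries are scaled by the median of ratios or to the same total of named genes, so no direction is given. Myh10 (ENSMUSG00000020900.15, chr11:68691559-68816632), which encodes heavy chain IIB, stood at 5.88 and 8.22 FPKM. It was 1.40-fold higher in the library labelled Per2def (0.42), the widest difference among the other 8 members and short of 2-fold. Among 4882 named genes within 2-fold of its level, 185 differed by as much in either direction, 109 of them upward. The share of Myh10 in the summed heavy chain FPKM was 9.93% in Per2wt and 13.3% in Per2def.

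Set against the heavy chains, regulatory light chain RNA stood at 3.49 FPKM per heavy chain FPKM in Per2wt and 2.33 in Per2def. Without Myl10 the Per2wt ratio was 1.99, and that in Per2def was 0.901 times as high. For the essential chains they were 2.72 and 2.45. Regulatory chain RNA exceeded essential chain RNA in Per2wt (ratio 1.28) and fell just short of it in Per2def (ratio 0.951). These are ratios of RNA and not of protein.

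Mylk (ENSMUSG00000022836.11, chr16:34745210-35002420), the kinase gene, was low in both libraries, at 0.521 and 0.562 FPKM (0.04). Together with Myl9 it is a member under 1 FPKM, so that 7 of the 9 members, and 6 of the 8 without Myl10, were among the genes counted. Of the 8 other members 5 were higher and 3 lower where the label is Per2def. The higher ones include Myl9 and Mylk, which are under 1 FPKM, and Myh9, which is given no direction. The median log2 difference of the 8 was 0.02, with a range of −0.15 to 0.42. For the 6 at 1 FPKM or more it was −0.004, beside 0.05 for all genes at that level. The median of the 8 changed sign when scaled by the median of ratios (−0.01), so it is given no direction. Myl10 stood 1.41 log2 units below that median (−1.41). The 4 other members at 30 FPKM or more in both libraries (Myl6, Myl12a, Myl12b and Myh9) lay between −0.15 and 0.07.

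The place of Myl10 in the genome was examined because the labels do not name the Per2 allele. Myl10 lies on chromosome 5 and Per2 on another chromosome. The annotation places no other gene over Myl10. The nearest coding gene before it is Cux1, a homeobox factor gene 125.7 kb away, at 41.3 and 32.0 FPKM (−0.36). Sh2b2, an adaptor gene 446.6 kb away, was at 2.39 and 3.20 FPKM (0.31). On the other side Col26a1, a collagen gene 40.7 kb away, was listed at 0 in both, and Ift22, a gene of cilium transport 207.1 kb away, was at 6.77 and 5.55 FPKM (−0.25). Within 500 kb on either side 8 of 13 coding genes were at 1 FPKM or more, and 5 of these were lower and 3 higher in the library labelled Per2def. Their differences ran from −0.36 in Cux1 to 0.41 in Trim56. Their median was −0.16, beside 0.05 for all genes at 1 FPKM or more, of which 62.0% were higher. The Myl10 difference of −1.39 lay outside the range of these neighbours, but Myl10 was taken for its difference, so nothing is read from that. Whether its place in the genome has a part in that difference was not tested.

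RefSeq gives Myl10 more than 1 start. The 250 bases before the first of the 3 starts listed (chr5:136692896-136693145, GRCm38.p6, plus strand) are shown because Myl10 is the member that differed by at least 2-fold.
Myl10: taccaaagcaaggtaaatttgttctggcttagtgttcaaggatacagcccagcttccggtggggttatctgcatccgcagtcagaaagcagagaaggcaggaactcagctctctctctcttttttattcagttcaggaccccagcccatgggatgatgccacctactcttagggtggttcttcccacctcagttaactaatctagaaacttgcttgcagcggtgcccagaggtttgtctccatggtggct
This window was searched on both strands for the E-box of the clock activators, CACGTG, for the wider E-box CANNTG, which takes in the first, and for the CArG box bound by serum response factor, a regulator of many actin and myosin genes. The 3 Myl10 windows held 0 of each. CACGTG occurs in 6.02% of the 32851 windows of the same length, CANNTG in 66.2% and the CArG box in 1.47%. Among the members CACGTG was found before Myl12a and a CArG box before Myl9 and before 1 of the 2 Myl6 starts. These are matches of letters only.

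Other genes of the pathway around the motor were also compared. Of 107 other genes in 8 lists, written with earlier results of these data known, 65 were at 1 FPKM or more. Of these, 38 were higher and 27 lower in the library labelled Per2def (58.5% higher, beside 62.0% of all genes), with a median of 0.02 beside 0.05. On the log2(FPKM + 1) scale 0 of the 65 were at least 2-fold apart, beside 0.998% of all genes lower and 1.25% higher, shares at which few or none of 65 would be. As plain ratios of FPKM, Myl6b (2.23-fold lower) and Mylk3 (2.09-fold higher) were past 2-fold. The other class II heavy chain genes, those of skeletal, heart and smooth muscle among them, were under 1 FPKM in 12 of 12 cases. The highest by the mean of both libraries were Myh7b (0.0955 and 0.118 FPKM) and Myh11 (0.0715 and 0.0759 FPKM). Of 6 other class II light chain genes Myl1, Myl2, Myl3 and Myl7 were listed at 0 in both libraries. The remaining pair were both lower in the library labelled Per2def. Myl6b, a further essential chain, was at 2.75 and 1.24 FPKM (−0.75), and 33 of 3259 named genes within 2-fold of its level differed by as much. Mylpf, the regulatory chain of fast skeletal muscle, was at 2.45 and 1.78 FPKM (−0.31).

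Kinases and phosphatase subunits that act on the regulatory chains stayed within 2-fold on the log2(FPKM + 1) scale. Of 15 other kinase genes 11 were counted, 9 higher and 2 lower, with a median of 0.09. Mylk3, the light chain kinase of heart muscle, had the widest difference, at 1.09 and 2.29 FPKM (0.65), followed by Cdc42bpa (2.08 and 2.60 FPKM, 0.23). The most abundant were Pak2 (11.6 and 12.4 FPKM) and the kinase gene Rock1 (9.67 and 10.9 FPKM). Of 8 phosphatase genes 5 were counted, 3 higher and 2 lower, with a median of 0.02. Ppp1r12a, which encodes the subunit that targets the phosphatase to myosin, was at 11.8 and 14.5 FPKM (0.28). The inhibitor gene Ppp1r14b (58.3 and 60.3 FPKM, 0.05) and the catalytic subunit gene Ppp1cb (20.4 and 20.7 FPKM, 0.02) were the most abundant.

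Actin and unconventional myosin genes also stayed within 2-fold on that scale. Of 24 actin and actin-binding genes 20 were counted, 13 higher and 7 lower (median 0.02). Actb (532.3 and 575.0 FPKM, 0.11) and the profilin gene Pfn1 (406.1 and 395.5 FPKM, −0.04) led in level, and the tropomyosin gene Tpm4 (4.94 and 7.26 FPKM, 0.48) and the vinculin gene Vcl (6.78 and 9.43 FPKM, 0.42) in difference. Of 24 unconventional myosins 11 were counted, 8 higher and 3 lower (median 0.05). Myo1f (7.08 and 8.87 FPKM, 0.29) and Myo1d (2.88 and 3.58 FPKM, 0.24) had the widest differences. Myo1g, at 12.7 and 10.6 FPKM (−0.24), and Myo18a, at 12.6 and 13.3 FPKM (0.07), were the most abundant. Srf (6.86 and 6.96 FPKM) and its coactivator genes Mkl1 (7.24 and 7.16 FPKM) and Mkl2 (2.74 and 2.55 FPKM) lay between −0.08 and 0.02.

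**Figure D4:**
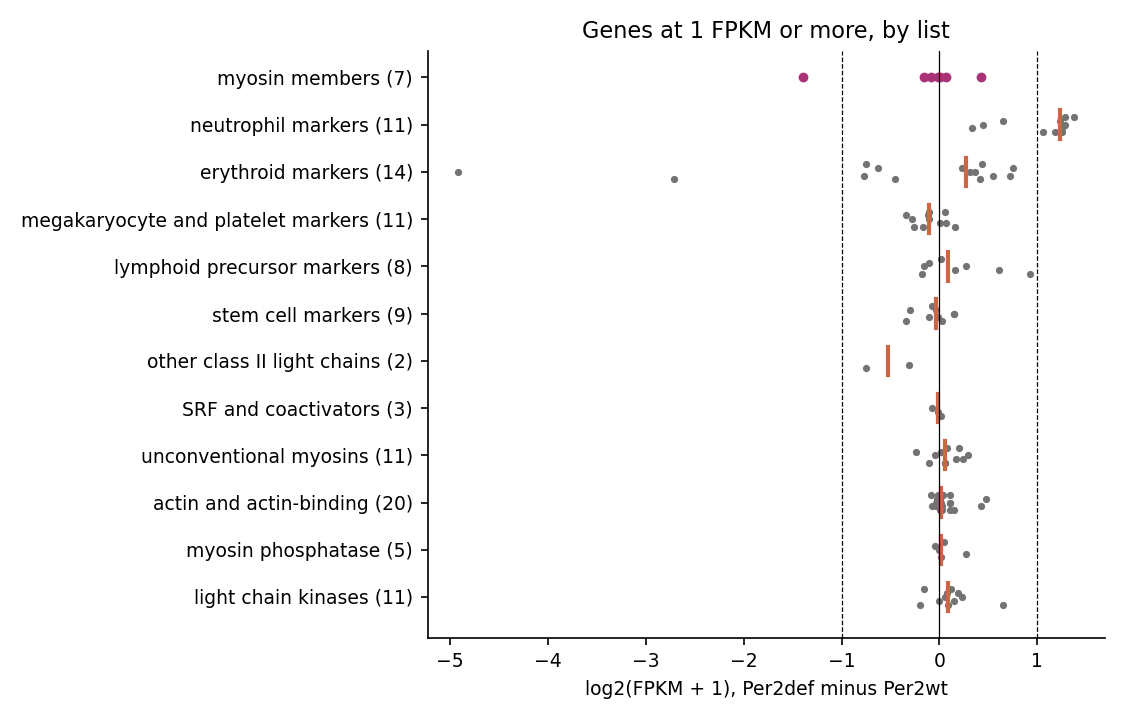
Difference in log2(FPKM + 1), Per2def minus Per2wt (horizontal axis), for genes at 1 FPKM or more in each list, with the number of genes in brackets, 1 point per gene and an orange bar at the list median. Dashed lines mark 2-fold. The pathway genes shown lie within the lines, as do 6 of the 7 myosin members shown at the top, while Myl10 lies at −1.39.

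Markers of the cell types that could carry these chains are given beside the Myl10 difference of −1.39, and their part in it was not tested. Of 12 stem cell markers 9 were counted, 3 higher and 6 lower in the library labelled Per2def (median −0.04), and the list sums were 184.9 FPKM (Per2wt) and 175.0 FPKM (Per2def). The widest were Hlf, at 20.3 and 15.8 FPKM (−0.34), and Tek, at 1.24 and 0.827 FPKM (−0.30). Of 20 lymphoid precursor markers 8 were counted, 5 higher and 3 lower (median 0.09), with sums of 84.7 and 79.0 FPKM. Most of that sum was Dntt, a gene of early lymphoid progenitors, at 68.7 and 60.6 FPKM (−0.18), followed by Cd79b at 6.00 and 5.29 FPKM. Cd3g, at 0.266 and 1.41 FPKM (0.93), and Tcf7, at 1.22 and 2.40 FPKM (0.61), were higher. Igll1, which defines precursor B cells, was listed at 0 in both, and Pax5 at 0.0434 FPKM and 0.

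Other cell type lists moved in other ways. Of 16 megakaryocyte and platelet markers 11 were counted, 4 higher and 7 lower (median −0.11), with sums of 68.8 and 63.4 FPKM. Among them were Pf4 (15.8 and 13.9 FPKM), Plek (13.4 and 12.5 FPKM), Selp (−0.34) and Itgb3 (−0.28). Of 16 erythroid markers 15 were found and 14 counted, 8 higher and 6 lower (median 0.27), with sums of 832.3 and 793.9 FPKM. The globin genes found were all lower and most of the other counted markers were higher, so the sums join opposite differences. Car1 (177.3 and 293.7 FPKM) and Car2 (151.6 and 195.9 FPKM) were the most abundant of the list by the mean of both libraries. The globin genes Hba-a2 (−2.71) and Hbb-bs (29.2 and 0.00297 FPKM), which are near copies of others and uncertain, were at least 2-fold lower. Of all genes 0.998% were. All 11 neutrophil markers were higher in the library labelled Per2def, beside 62.0% of all genes at 1 FPKM or more. Of the 11, 8 were at least 2-fold higher, beside 1.25% of all genes. The list median was 1.23 and the list sums were 520.3 and 1002.8 FPKM. Striated muscle markers summed to 2.63 and 2.15 FPKM, with Ckm, Mb and Tnnt2 listed at 0 in both and Tnni2 at 1.41 and 0.454 FPKM. Smooth muscle and stromal markers summed to 6.02 and 7.37 FPKM, mainly Pdgfrb (3.60 and 4.60 FPKM) and Lepr (1.23 and 1.30 FPKM).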

How the data were processed

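Libraries were made from poly(A) RNA with a kit that marks strand, per the labels' protocols. The deposited values are FPKM per gene, per the file headers. The authors computed them with Cufflinks, per the submitters' processing notes, which also name CASAVA 1.8, TopHat, Bowtie2, GRCm38 and mm10. The other versions, the annotation and the use of strand were not given in the sources used here. Each file held 24487 rows. A total of 9 rows without an estimate and 27 rows with symbols turned into dates were left out, and rows sharing a symbol were summed. Each member had 1 row. Differences are log2(FPKM + 1), Per2def minus Per2wt (pseudocount 1 FPKM). Counts use genes that reached 1 FPKM in either library and a threshold of 2-fold. FPKM are relative to each library's total, and Cufflinks shares multiply mapping reads among copies. Groups follow the genotype labels. The calculation was tested on simulated data.

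The members and lists were chosen with earlier results of these data known. Named genes are the members, Per2, and from each list the 2 most abundant, the 2 widest in difference and those past 2-fold, with the 2 coding genes on each side of Myl10 and the 5 genes nearest to it in difference. Of the neutrophil list only counts and sums are printed. Some genes, and 1 pathway list, are counted in the totals and not reported here singly. Kit, Slamf1, Fgd5, Hoxb5, Igll1, Pax5, Ckm, Mb, Tnnt2 and the genes listed with Myl10 at 30 FPKM or more were named outside this rule. So were Trim56 and light chain genes listed at 0. Coordinates and coding sequences are from GENCODE M21 (GRCm38), matched by symbol for 9 of 9 members, and upstream windows from RefSeq (GRCm38.p6). Words of 50 bases were compared on the transcript strand. Python 3.11.15, pandas 2.3.3 and numpy 2.4.6 were used. Alternatives were pseudocounts, scalings, filters, fold thresholds and the highest row per symbol.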

Additional observations from a re-analysis of the deposited data

How the results depend on the processing

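The Myl10 difference lay between −1.44 and −1.39 under 6 alternatives (pseudocounts of 0.1 and 0.5 FPKM, 3 scalings and the highest row per symbol). Its distance to the median of the other members lay between −1.45 and −1.41. Each member had 1 row, so the highest row per symbol could not change the value of a member. The sum of the regulatory chains lay between −0.57 and −0.52. Scaling by the median of ratios multiplied Per2def values by 0.963, a shift of −0.05 for abundant genes and less for low ones on the log2(FPKM + 1) scale, and turned the sign of Myh9 (to −0.05, and to just under 0 with the same total of named genes) and of the median of the other members (to −0.01). With a pseudocount of 0.1 FPKM the Myl9 difference, which rests on 0 in Per2wt, was 0.48. The count of genes at least 2-fold higher, 139 as reported, was 217 with a pseudocount of 0.1 FPKM, 290 at a 1.5-fold threshold and 87 at 4-fold. The count of lower genes, 111 as reported, was 189 at 1.5-fold. In place of a replicate spread, a difference was called moved when it shifted by more than 0.5 times the 16th to 84th percentile range of named genes at like level (at 1 FPKM for lower members), and a count when it changed by more than 1.5 times. No paired analysis was possible because each genotype has 1 library, and no library could be left out. Depth is unknown, so no interval can be given for any member, least of all for Myl9, Mylk and Myl4.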
